A study of Drosophila melanogaster with 6 samples.

Results

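The genes described here are 10 genes of eye pigment synthesis and transport in *Drosophila*, *w*, *st*, *bw*, *v*, *cn*, *cd*, *ry*, *Hn*, *pr* and *se*, chosen by their FlyBase symbols from the 17558 genes of the deposited count table. All 10 were found, and 9 of them were expressed highly enough to be tested. RNA-seq was performed on 3 pre-isolation samples, labelled as total RNA of the head, and on 3 post-isolation samples, nuclear RNA of nuclei captured with an antibody against GFP and washed at 300 mM NaCl. The groups thus differ in the kind of RNA as well as in the cells it came from, and these cannot be told apart. All flies were males aged 10 days, pooled within a sample, and the labels pair the samples by replicate number. The driver *rh1-GAL4* uses the promoter of the outer photoreceptor rhodopsin to express a GFP-Msp300KASH fusion that sits on the nuclear membrane, so the capture targets outer photoreceptors. By the study's own account the driver is also active in sensory neurons of the antenna, whose nuclei are then captured too, while cells that lack the fusion enter as background.

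The genotype bears on these genes directly, since both groups carry the same alleles. Although the sample titles read WT, the strain is mutant for *w*. The UAS-GFP-Msp300KASH transgene is marked with *w*[+mC], a mini-white gene. The strain also carries the rosy allele *ry*[506], and the driver transgene is marked with *ry*[+t7.2], a wild-type rosy gene. Reads of a marker gene align to the same gene as those of its endogenous copy, so the counts of *w* and *ry* sum both sources, which cannot be told apart here. The reference genome itself comes from a strain mutant for *cn* and *bw*, and the annotation places a transposable element within *bw*.

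The fly eye owes its color to brown ommochromes, made from tryptophan, and red drosopterins, which are pteridines made from GTP. Precursors are carried into pigment granules by ABC transporters that are dimers, in which the White protein pairs with Scarlet for ommochrome precursors and with Brown for pteridine precursors. Pigment granules lie in the pigment cells that sheathe each ommatidium and, for ommochromes, also in the photoreceptors, where they migrate upon illumination. Several of the enzymes act outside the eye as well, in amino acid and purine metabolism.

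Gene counts summed to 9999540 in the shallowest sample and to 14522962 in the deepest. Alignments to more than 1 place, which the counter left out, made up between 86.0% and 91.7% of all alignments in the deposited table. Levels are given as CPM, the count of a gene relative to the total of its library, after scaling with edgeR's TMM factors. Post-isolation samples were compared with pre-isolation samples by edgeR's glmTreat, which tests for a change above 2-fold, and genes below a false discovery rate (FDR) of 0.05 over all 10378 genes tested are called post-enriched or post-reduced. Of all genes tested, 7.29% were post-enriched and 4.89% post-reduced. Of 10 photoreceptor markers, 7 were post-enriched. *ninaE*, the highest of the 10 before isolation, *Cpn* and *Arr2* were not called, with log2 fold changes of 0.86, 0.99 and 1.00. All 10 markers were higher in every post-isolation sample than in any pre-isolation sample, as were 28.0% of all genes tested. The median of these markers lay 2.09, 1.89 and 1.48 above the pre-isolation mean on the log2 scale in post-isolation replicates 1 to 3. Post-isolation replicate 3 was thus the nearest to the pre-isolation samples.

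Among the 9 tested pigment genes, *w* was post-enriched, *Hn* and *v* were post-reduced, and the other 6 were not called. The called shares were 11.1% post-enriched and 22.2% post-reduced. These are shares of a list of 9 genes, beside 7.29% and 4.89% of all genes. The same 3 genes were called with the replicate number as a block. Over the 9 genes the log2 fold changes had a median of -0.42, beside -0.07 over all genes tested. The log2 fold changes ran from -2.22 for *Hn* to 3.60 for *w*, and both ends lay outside the range of -1.62 to 1.99 that held the genes between the 5th and 95th percentiles.

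**Figure D1:**
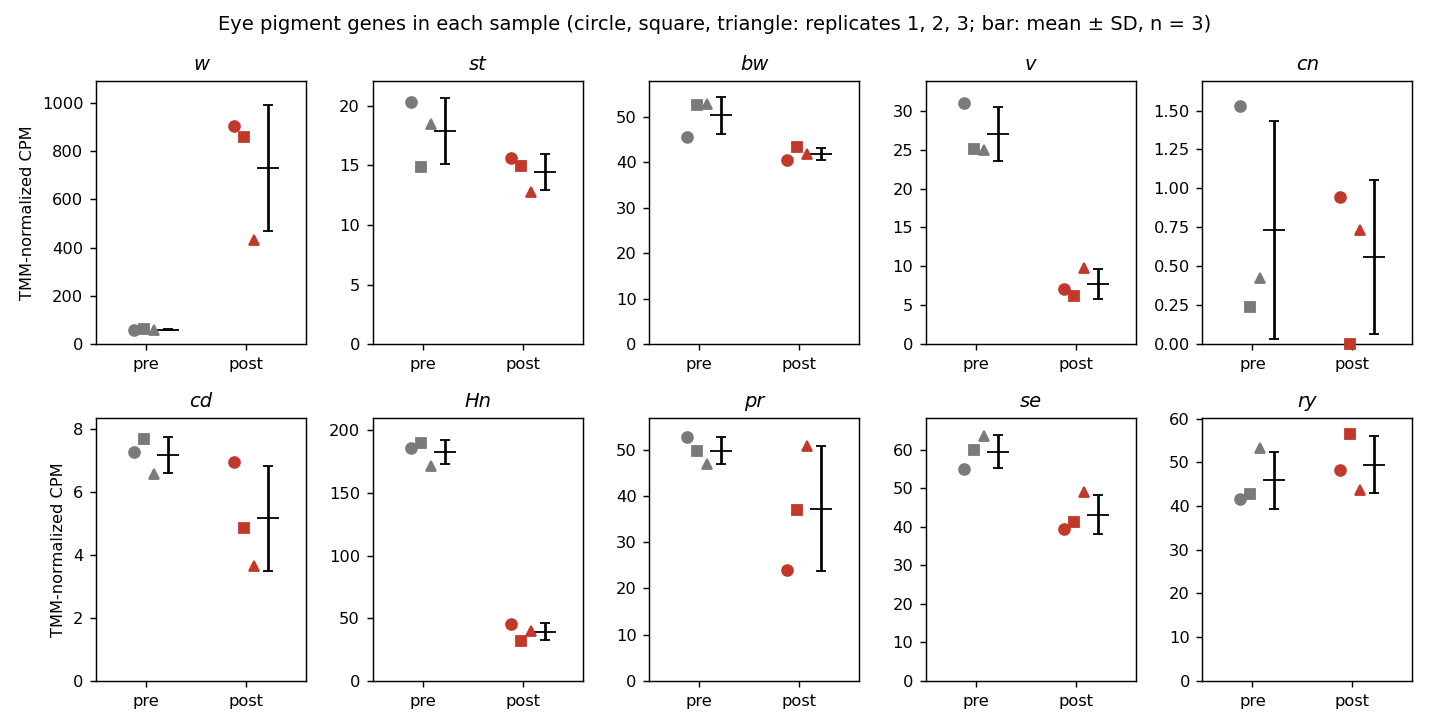
TMM-normalized CPM (vertical axes, each from 0 and on its own scale) of the 10 pigment genes in the 3 pre-isolation samples (grey) and 3 post-isolation samples (red), with circles, squares and triangles for replicates 1 to 3 and bars for the mean ± SD. The post-isolation samples of *w* lie between 431 and 903, all above the pre-isolation samples, whereas those of *Hn* lie between 32.1 and 45.4, all below them.

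*w* (FBgn0003996) encodes the transporter subunit that both pigment pathways share and lies on the minus strand of X from 2790599 to 2796466 in BDGP6, with 6 exon blocks. Replicates 1 to 3 had 776, 805 and 671 counts of *w* before isolation and 10499, 9351 and 4724 after. In CPM, these were 59.5, 63.9 and 57.3 before isolation and 903, 859 and 431 after. The groups did not overlap, and 28.0% of all tested genes were likewise higher in every post-isolation sample. Post-isolation replicate 3 was the lowest of its group, as it was for the photoreceptor markers. The mean CPM rose from 60.2 ± 3.36 to 731 ± 261 (SD, n = 3), which is 3.60 on the log2 scale (SE 0.23, 95% interval 3.11 to 4.09, edgeR glmTreat, Benjamini-Hochberg FDR = 2.99e-07). This 12.1-fold change ranked 97 from the highest among all genes tested. With each sample left out in turn the log2 fold change of *w* stayed between 3.42 and 3.91.

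*w* made up 11.6% to 12.6% of the counts of the 10 genes before isolation. In post-isolation replicates 1 to 3 it made up 79.8%, 78.4% and 63.1%. The 10 genes together took between 0.0581% and 0.0590% of gene counts before isolation and between 0.0640% and 0.0914% after. Without *w*, the share of the other 9 was between 0.0512% and 0.0515% before and between 0.0183% and 0.0236% after, so the rise of the sum came from *w* and the other members together took a lower share. Among these 9, *Hn* and *v* alone were called. *Hn*, the highest of them before isolation, fell from a mean of 182 to 39.2 CPM. A share is not scaled between samples, unlike the CPM.

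On the annotation, *w* lies within *kirre*, a cell adhesion gene on the opposite strand, and shares no exon base with it. *kirre* was also post-enriched, with a log2 fold change of 1.84 with an SE of 0.15 (edgeR glmTreat, Benjamini-Hochberg FDR = 0.000137). Its counts were between 383 and 438 before isolation and between 1105 and 1468 after, fewer than those of *w* in every sample. The counting was specific to the strand, and whether any reads of *kirre* were counted on *w* was not tested.

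By the profile over the 6 samples, the tested genes most like *w* were *CG34141*, *mir-4968* and *CG43446*. Likeness was taken as the mean absolute difference between log2(CPM + 1) profiles, each centred on its own mean, and was 0.0684 for *CG34141*, 0.0893 for *mir-4968* and 0.0949 for *CG43446*. The log2 fold changes of these genes were 3.63, 3.92 and 4.21. Their mean CPM before isolation was 16.5, 3.98 and 1.58, below that of *w*.

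*st* (FBgn0003515), whose product pairs with White to carry ommochrome precursors, lies on 3L from 16497651 to 16500460. The CPM of *st* was 20.3, 14.8 and 18.4 before isolation and 15.6, 14.97 and 12.8 after (replicates 1 to 3). The groups overlapped. The log2 fold change of *st* was -0.30 (SE 0.21, 95% interval -0.76 to 0.15, edgeR glmTreat FDR = 1), so that an increase of the size seen for *w* lay outside the interval.

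*bw* (FBgn0000241), whose product pairs with White to carry pteridine precursors, lies on 2R from 23527805 to 23538499. The CPM of *bw* was 45.5, 52.5 and 52.8 before isolation and 40.6, 43.3 and 41.7 after. Every post-isolation sample lay below every pre-isolation sample, by a small margin, and 30.1% of all tested genes showed the same order. The log2 fold change of *bw* was -0.26 (SE 0.14, 95% interval -0.57 to 0.04, edgeR glmTreat FDR = 1). *bw* shares 456 exon bases with *mi* on the opposite strand.

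The ratio of *w* to its partners within a sample needs no scaling between samples. For each count of *st*, replicates 1 to 3 had 2.92, 4.30 and 3.10 counts of *w* before isolation and 57.5, 57.2 and 33.6 after. For each count of *bw*, there were 1.31, 1.22 and 1.09 counts of *w* before isolation and 22.2, 19.8 and 10.3 after. Both ratios were thus higher in every post-isolation sample. On the log2 scale, the ratio of *w* to *st* differed by 3.82 in the mean, from 1.76 ± 0.30 to 5.59 ± 0.44 (SD, n = 3). That of *w* to *bw* differed by 3.79, from 0.26 ± 0.13 to 4.05 ± 0.60. Each had p = 0.1 in a two-sided exact permutation test, which cannot go lower with 3 samples a group, and p = 0.15 after Benjamini-Hochberg adjustment over the 3 ratios. In contrast, the log2 ratio of *st* to *bw* was -1.499 ± 0.33 before and -1.53 ± 0.17 after isolation, a difference of -0.04 that was smaller than the spread between replicates (exact permutation test, p = 0.9). Leaving out replicate 1 or replicate 3 gave 0.05 or 0.04, so this difference has no stable sign.

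**Figure D2:**
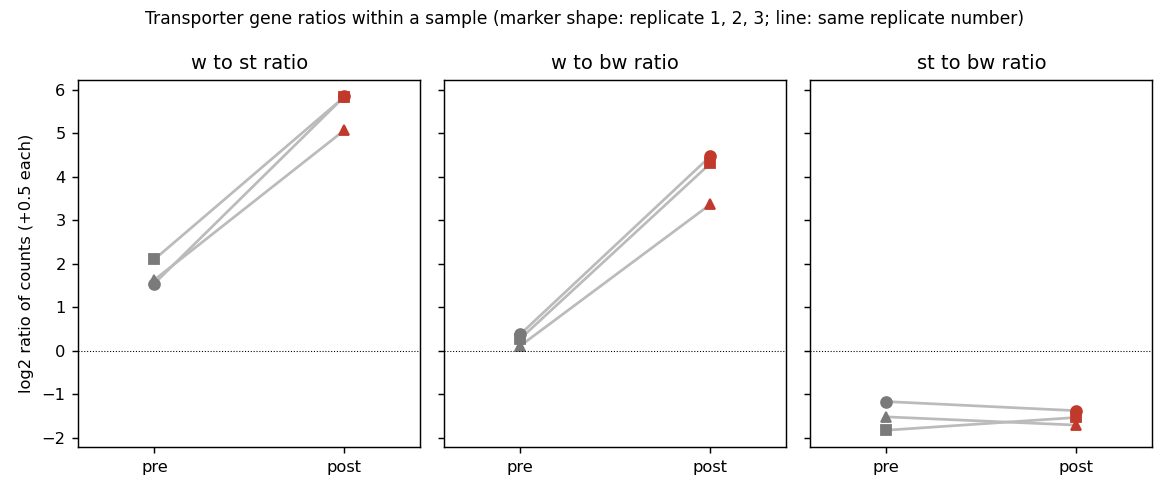
Log2 ratio of counts within a sample (vertical axis, 0.5 added to each count) for *w* to *st*, *w* to *bw* and *st* to *bw*, before (grey) and after (red) isolation, with lines joining samples of the same replicate number. All post-isolation ratios with *w* lie above the pre-isolation ones, with means of 5.59 against 1.76 and 4.05 against 0.26, while the samples of *st* to *bw* overlap.

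*v* (FBgn0003965) encodes tryptophan 2,3-dioxygenase, which opens the ommochrome pathway by converting tryptophan to formylkynurenine, and lies on X from 10923972 to 10925631. The counts of *v* were 404, 316 and 292 before isolation and 83, 68 and 108 after. In CPM, these were 31.0, 25.1 and 24.9 before and 7.14, 6.25 and 9.85 after. The groups did not overlap, and the highest post-isolation value, in replicate 3, was below the lowest value before isolation. The same order was seen in 30.1% of all tested genes. The mean CPM of *v* was 27.0 ± 3.44 before and 7.75 ± 1.88 after isolation (SD, n = 3), and the gene fell by 1.80 on the log2 scale (SE 0.23, 95% interval -2.30 to -1.31, edgeR glmTreat, Benjamini-Hochberg FDR = 0.00562). The level before isolation was 3.49-fold that after.

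*cn* (FBgn0000337) encodes kynurenine 3-monooxygenase, the enzyme of the following oxidation step, and lies on 2R from 7782797 to 7785067. It was close to undetected. Its counts were 20, 3 and 5 before isolation and 11, 0 and 8 after, and it did not reach 1 CPM in 3 samples, so it was not tested. The count of 0 in post-isolation replicate 2 allows up to 3 counts, or 0.276 CPM. Fitted without the filter on low counts, *cn* had a log2 fold change of -0.40 with an SE of 1.07 (edgeR glmTreat FDR = 1), and a difference could not be detected at this depth. An antisense RNA gene shares 1229 exon bases with *cn*, and had at most 9 counts in any sample.

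*cd* (FBgn0263986), required for a late step of ommochrome synthesis, lies on 3R from 22694959 to 22697990 and was the lowest of the tested members. The counts of *cd* were 95, 97 and 77 before isolation and 81, 53 and 40 after. The CPM of *cd* was 7.28, 7.70 and 6.57 before and 6.96, 4.87 and 3.65 after, and the groups overlapped through post-isolation replicate 1. The log2 fold change was -0.47 (SE 0.33, 95% interval -1.18 to 0.24, edgeR glmTreat FDR = 1), an interval that extends past a 2-fold decrease.

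*Hn* (FBgn0001208) encodes phenylalanine hydroxylase, which uses a reduced pterin as its cofactor and whose loss alters pteridine pigments, and lies on 3L from 7760453 to 7763166. The counts of *Hn* were 2424, 2393 and 2012 before isolation and 528, 349 and 439 after, equal to 186, 190 and 172 CPM before and 45.4, 32.1 and 40.1 CPM after. The groups were far apart, and 30.1% of all tested genes were likewise lower in every post-isolation sample. The mean CPM of *Hn* was 182 ± 9.48 before and 39.2 ± 6.71 after isolation (SD, n = 3), and the gene fell by 2.22 on the log2 scale (SE 0.14, 95% interval -2.52 to -1.91, edgeR glmTreat, Benjamini-Hochberg FDR = 2.41e-06). The level before isolation was 4.65-fold that after, and the log2 fold change ranked 169 from the lowest among all genes tested.

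*pr* (FBgn0003141) encodes 6-pyruvoyl tetrahydropterin synthase, which acts after GTP cyclohydrolase on the route to drosopterins and tetrahydrobiopterin, and lies on 2L from 20073719 to 20075458. The CPM of *pr* was 52.7, 49.7 and 46.9 before isolation and 23.9, 37.0 and 50.8 after. The spread after isolation was wide, and replicate 3 lay within the pre-isolation range. The log2 fold change of *pr* was -0.42 (SE 0.21, 95% interval -0.87 to 0.03, edgeR glmTreat FDR = 1).

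*se* (FBgn0086348) encodes pyrimidodiazepine synthase, a glutathione S-transferase family enzyme that makes a drosopterin precursor, and lies on 3L from 8520552 to 8521489. The CPM of *se* was 55.0, 60.0 and 63.5 before isolation and 39.4, 41.2 and 48.9 after, with no overlap between the groups. Of all tested genes, 30.1% showed the same order. The log2 fold change of *se* was -0.46 (SE 0.14, 95% interval -0.77 to -0.15). This decrease did not pass the 2-fold test (edgeR glmTreat FDR = 1). It passed a quasi-likelihood F test against no change (FDR = 0.0149 from edgeR with Benjamini-Hochberg adjustment), by which 26.1% of all genes were lower after isolation. *se* was the one member for which the tests gave different calls. *se* shares 61 exon bases with its neighbor and paralog *GstO2* on the opposite strand, and reads that align equally well to both would be missing from its counts.

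*ry* (FBgn0003308) encodes xanthine dehydrogenase, which makes the pteridine isoxanthopterin and oxidizes purines, and lies on 3R from 13032528 to 13038020. The CPM of *ry* was 41.5, 42.8 and 53.3 before isolation and 48.2, 56.5 and 43.7 after. The groups overlapped, and the log2 fold change was 0.11 (SE 0.16, 95% interval -0.22 to 0.45, edgeR glmTreat FDR = 1). Both *w* and *ry* are carried as markers by transgenes in this strain. *ry*, the marker of the driver, changed by less than the spread between replicates, whereas *w*, the marker of the GFP transgene, rose 12.1-fold. With library size alone as the scaling, *ry* had a log2 fold change of -0.34, and that scaling moved the median of all genes by -0.45.

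Per kilobase of exon, the order of the members was set by different genes before and after isolation. Before isolation *Hn* was the highest at 86.3 ± 4.48 CPM per kb (SD, n = 3), followed by *se* at 72.1 ± 5.18, *pr* at 46.4 ± 2.72 and *w* at 25.6 ± 1.43. *v* at 20.7 ± 2.63 and *bw* at 18.4 ± 1.504 had overlapping samples, as no other neighbors in this order did. *ry*, *st*, *cd* and *cn* followed at 10.6 ± 1.49, 8.32 ± 1.30, 2.74 ± 0.22 and 0.409 ± 0.391 CPM per kb. After isolation *w* was the highest at 311 ± 111 CPM per kb. It was followed by *se* at 52.3 ± 6.13 and *pr* at 34.7 ± 12.5, while *Hn*, at 18.5 ± 3.17, came next and overlapped *bw* at 15.3 ± 0.492. *ry* at 11.4 ± 1.49 CPM per kb was above *st* at 6.74 ± 0.6996, which overlapped *v* at 5.93 ± 1.44, and *cd* and *cn* were again the lowest.

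Of 11 other genes of pterin, molybdenum cofactor and ommochrome metabolism, 10 could be matched to the count table and all 10 were tested. Of these, *Pcd* was post-reduced, or 10.0% of the list, beside 4.89% of all genes tested. None was post-enriched, beside 7.29% of all genes tested. The count of post-enriched genes was also 0 at an unadjusted p below 0.05 in glmTreat and with DESeq2. The median log2 fold change of this list was -0.53. *Pcd*, whose product recycles the pterin cofactor of the hydroxylases, had a CPM of 24.4, 25.8 and 34.0 before isolation and 7.05, 10.7 and 10.2 after, and a log2 fold change of -1.59 with an SE of 0.23 (edgeR glmTreat, Benjamini-Hochberg FDR = 0.0284). The call was lost with DESeq2 (adjusted p = 0.328), without pre-isolation replicate 3 (FDR = 0.125 from glmTreat) and without post-isolation replicate 1 (FDR = 0.144).

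Against no change, 5 of these 10 genes were lower after isolation, namely *Pcd*, *Pu*, *cl*, *Sptr* and *Dhpr*, and 2 were higher, beside 26.1% and 24.4% of all tested genes. *DhpD*, another pterin enzyme gene of the list, had overlapping groups and a log2 fold change of -0.25 that did not pass this test (FDR = 0.380 from edgeR's F test). *Pu*, which encodes GTP cyclohydrolase, the first enzyme of the pteridine pathway, had a log2 fold change of -0.89 (FDR = 0.000155 from edgeR's F test with Benjamini-Hochberg adjustment). Those of *cl*, *Dhpr* and *Sptr* were -1.08, -1.41 and -0.81. *kar*, which encodes a monocarboxylate transporter family protein needed for normal eye color, was the highest of the list. The CPM of *kar* was 67.8, 70.5 and 55.0 before isolation and 143, 150 and 113 after, with a log2 fold change of 1.07 (SE 0.15) that passed the F test (FDR = 2.35e-05) and not the 2-fold test (edgeR glmTreat FDR = 0.543). *mal*, which encodes the molybdenum cofactor sulfurase that xanthine dehydrogenase needs, was the other gene higher by the F test, with a log2 fold change of 0.93 (FDR = 0.00959).

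Of 12 genes of pigment granule biogenesis, which encode subunits of the AP-3 adaptor, of the HOPS complex and of related trafficking factors, 11 were matched and tested. *g* and *lt* were post-enriched, or 18.2% of a list of 11 genes, beside 7.29% of all genes tested. None was post-reduced (0 also at an unadjusted p below 0.05 in glmTreat and with DESeq2), beside 4.89% of all genes tested. The median log2 fold change was 0.26, beside -0.07 over all genes tested, and 9 of the 11 genes lay above 0. By the F test against no change, 5 of the 11 were higher, beside 24.4% of all genes tested. *g*, which encodes the delta subunit of AP-3, had a CPM of 98.9, 97.5 and 86.6 before isolation and 383, 430 and 273 after. The groups did not overlap, and 28.0% of all tested genes were likewise higher in every post-isolation sample. The log2 fold change of *g* was 1.94 (SE 0.16, edgeR glmTreat, Benjamini-Hochberg FDR = 5.99e-05).

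*lt*, which encodes the HOPS subunit Vps41, had a CPM of 37.1, 47.7 and 46.1 before isolation and 151, 144 and 77.1 after, and a log2 fold change of 1.51 with an SE of 0.21 (edgeR glmTreat, Benjamini-Hochberg FDR = 0.0323). This call was lost when either pre-isolation replicate 1 (FDR = 0.139 from glmTreat) or 3 (FDR = 0.0611), or post-isolation replicate 1 (FDR = 0.162) or 2 (FDR = 0.133), was left out, and with DESeq2 (adjusted p = 0.138). The other AP-3 subunit genes *rb*, *cm* and *or* had log2 fold changes of 0.45, 0.81 and 0.05, none of which was called. The lowest value of the list was that of *Blos1*, -0.22 (SE 0.36). It turned to 0.04 when the third pre-isolation or the first post-isolation sample was removed.

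**Figure D3:**
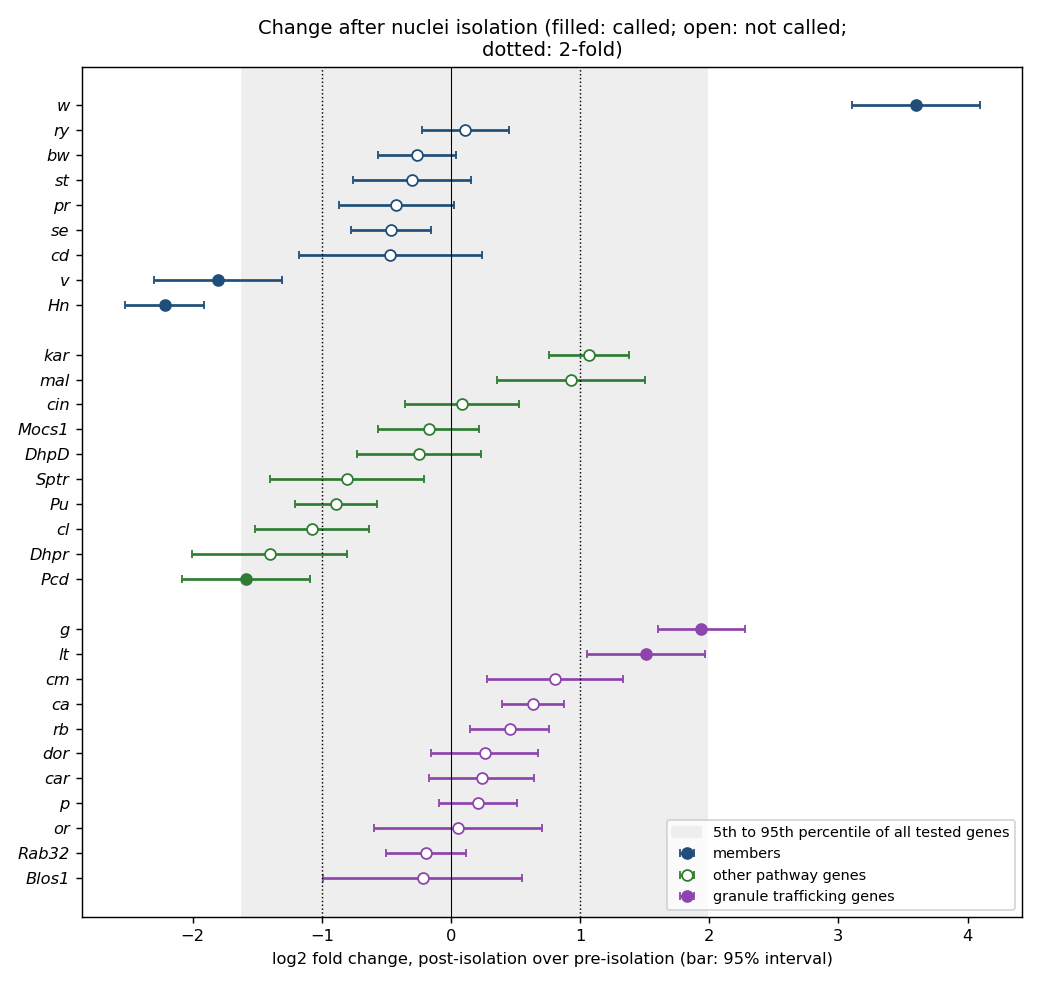
Log2 fold change of post-isolation over pre-isolation samples (horizontal axis, bars for 95% intervals) for the 9 tested members, 10 other pathway genes and 11 granule trafficking genes. Filled points are called, dotted lines mark 2-fold and the grey band spans the 5th to 95th percentiles of all tested genes; *w* lies at 3.60, beyond the band, while *v* at -1.80 and *Hn* at -2.22 lie below it.

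The head holds several cell types besides photoreceptors, and markers of some of them were read from the same comparison. Of 7 fat body markers found, 6 were tested, and *fit*, at 17 counts or fewer in any sample, was not. The log2 fold changes of all 6 were below 0, with a median of -1.10. None was called by glmTreat (3 at an unadjusted p below 0.05, 0 with DESeq2), beside 7.29% post-enriched and 4.89% post-reduced of all tested genes. With the replicate block, 1 was called. By the F test against no change, all 6 were lower, beside 26.1% of all tested genes. Their summed CPM, with *fit*, ran from 9462 to 11028 before isolation and from 3163 to 5065 after. *Hn* at -2.22 and *v* at -1.80 had lower log2 fold changes than any fat body marker, of which the lowest was -1.39.

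Glial markers had a median log2 fold change of -0.80 over 6 genes. By glmTreat 0 were called (0 at an unadjusted p below 0.05, 0 with DESeq2), beside the same 7.29% and 4.89% of all tested genes. By the F test 5 were lower, beside the same 26.1% of all tested genes. The summed CPM of the 6 glial markers ran from 2093 to 2235 before isolation and from 969 to 1325 after. The 3 central neuron markers tested had a median log2 fold change of -0.90. Of these, *Gad1* was post-reduced by glmTreat, beside 4.89% of all tested genes, and 0 were with DESeq2. All 3 were lower by the F test, beside 26.1% of all tested genes. The sum of the 3 ran from 919 to 985 before and from 384 to 649 after. Of the pigment cell markers, *Pdh*, which encodes a retinoid dehydrogenase of pigment cells, was post-reduced from 1630 ± 96.1 to 579 ± 43.2 CPM (SD, n = 3), with a log2 fold change of -1.49 (edgeR glmTreat, Benjamini-Hochberg FDR = 0.00142). The other 3 genes of that list, *santa-maria*, *B-H1* and *B-H2*, lay between -0.11 and 0.66 and were not called. The list thus had 1 of 4 genes post-reduced, beside 4.89% of all tested genes. The Bar genes *B-H1* and *B-H2* are also expressed in some outer photoreceptors, and whether *santa-maria* is specific to pigment cells was not tested. The sum of all 4 pigment cell markers ran from 1643 to 1850 before and from 635 to 728 after, and *Pdh* made up most of it. The 4 cone cell markers had 0 called (0 at an unadjusted p below 0.05, 0 with DESeq2), beside 7.29% post-enriched and 4.89% post-reduced of all tested genes. Of these markers, 2 lay above 0 and 2 below, and the sum ran from 3771 to 3987 before and from 1481 to 2417 after. Most of that sum was *pros*, which is also expressed in other cells, with a mean CPM of 3382 before and 1500 after. By the F test, *pros* and *ct* were lower after isolation (FDR = 5.02e-05 and 0.000271 from edgeR), with log2 fold changes of -1.17 and -0.79. *Crys* and *sv* were higher by that test (FDR = 0.0181 and 0.00678 from edgeR), with log2 fold changes of 0.42 and 0.53. Over all tested genes, 26.1% were lower and 24.4% higher by it. No listed marker that was found was at 0 in all samples. The part of each cell type in the values of *w*, *v*, *Hn* and the other members was not tested, and in bulk samples fewer cells of a type and less RNA per cell cannot be told apart.

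**Figure D4:**
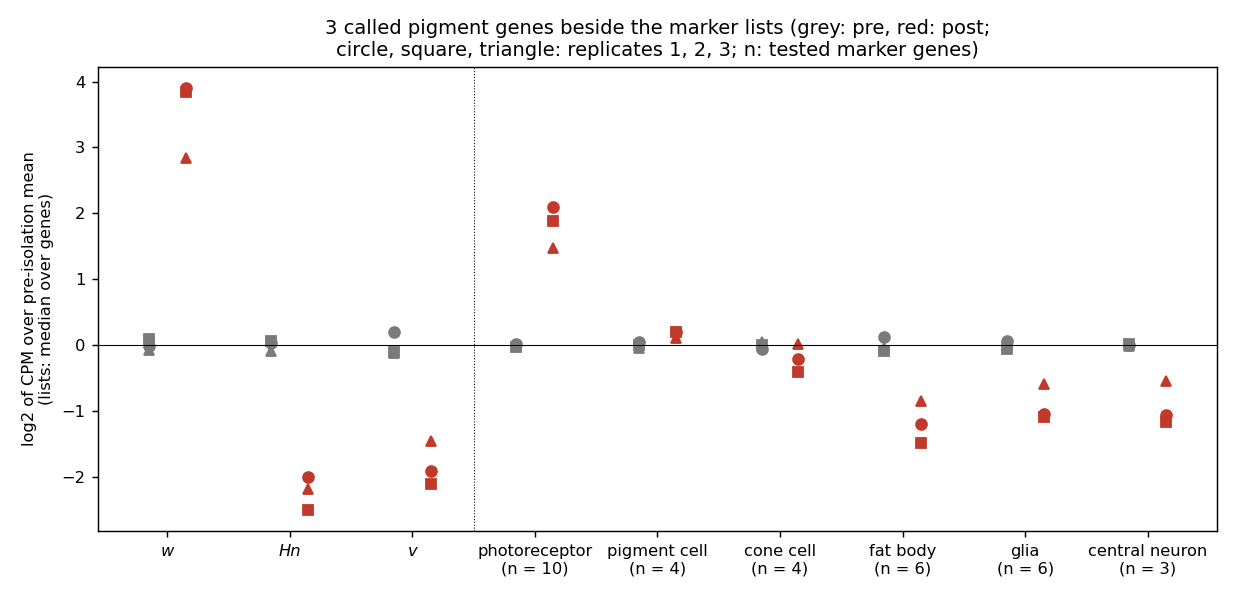
Log2 of CPM over the pre-isolation mean (vertical axis) in each sample for *w*, *Hn* and *v*, and as the median over tested genes for 6 marker lists, before (grey) and after (red) isolation. *w* lies above the photoreceptor median in all 3 post-isolation samples, and *Hn* and *v* lie below the fat body median.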

How the data were processed

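According to the methods of the study, the authors sequenced single-end reads, trimmed them (Trimmomatic), aligned them to BDGP6 (TopHat with Bowtie 2) and used strand-specific HTSeq counting. The deposited counts are whole numbers for 17558 genes without normalization, and rows of unassigned alignments (93.4% to 95.6% of a sample's total) were left out. The deposited CPM table, relative to the summed counts of 5262 filtered genes, was read only as a check and holds 7 of the members. No sample column was left unused.

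Symbols, positions and exon lengths came from Ensembl release 115 on BDGP6, later than the authors' release, which held 98.3% of the genes. *KFase*, *Vps16A*, *FASN1* and *VAChT* were not matched by identifier. No sequence is printed. Genes above 1 CPM in at least 3 samples were kept (10378) and scaled by TMM. Genes were tested across all genes with edgeR 4.0.16 in R 4.3.3 (glmQLFit, legacy = FALSE, and glmTreat at 2-fold). The SE came from the F statistic. Ratios used 0.5 added counts and exact permutation over 6 samples. Alternatives were RLE factors, library size alone, DESeq2 1.42.0, an F test against no change, other filters, the replicate block, each sample left out on the same genes, and a legacy quasi-likelihood fit added after seeing the data. Python 3.11.15 and pandas 2.3.3 made the tables. The fits were tested on simulated data.

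The members and lists were chosen with earlier results of these data known. All members are named. Of the pathway and granule lists, called genes and the highest and lowest are named, and other genes were chosen after their values were seen. The labels mark replicates as paired. Deviations of same-numbered samples correlated at 0.0155, 0.0525 and -0.000986 across genes. The labels call the replicates biological and say no more, so p-values measure the spread between these samples. Counting limits cover counting error only.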

Additional observations from a re-analysis of the deposited data

How the results depend on the processing

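In all 15 alternative fits *w* remained post-enriched and *v* and *Hn* post-reduced, with log2 fold changes from 3.13 to 3.91, from -2.25 to -1.67 and from -2.67 to -2.09. With the replicate block, these were 3.54, -1.81 and -2.23, no other named call changed, and 740 genes were post-enriched and 523 post-reduced. Over all genes, library size alone gave 451 post-enriched and 1253 post-reduced genes, the F test against no change 2535 and 2707, the authors' filtered genes 480 post-enriched, and DESeq2 278 post-reduced, against 757 and 508. Of the other pathway genes, 3 were post-reduced with library size alone, beside 1253 of all 10378 genes tested, and 0 with DESeq2. With the F test 5 were lower and 2 higher, beside 26.1% and 24.4% of all genes. Between 0 and 2 were post-reduced with each sample left out. Of the granule genes, 1 was post-enriched with library size alone, with DESeq2 or on the authors' filtered genes. With the F test 5 were higher, beside 24.4% of all genes, and 1 or 2 were post-enriched with each sample left out. *lt* had log2 fold changes of 1.04 and 1.46 with library size alone and on the filtered genes. *ry* turned to -0.34 with library size alone, and *Blos1* to 0.0407 without pre-isolation replicate 3 and 0.0402 without post-isolation replicate 1, with a range of -0.608 to 0.0407 over samples left out. The log2 difference of *st* to *bw* ran from -0.20 to 0.0521 with each replicate number left out (0.0521 without 1 and 0.0418 without 3). For *w* to *st* it ran from 3.59 to 4.02 and for *w* to *bw* from 3.64 to 4.06. As a replicate block, the mean within-pair differences were 3.82, 3.79 and -0.04 (exact sign changes, p = 0.25, 0.25 and 1). The cause was not tested. Depth limits *cn* and, more weakly, *cd*.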
